A study of Mus musculus with 9 samples.

Results

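The nuclear-encoded subunits of respiratory chain complexes I to IV were followed in mouse gastrocnemius, a mixed but mostly fast calf muscle, after castration and after testosterone replacement. A gene was taken as a member where its symbol starts with Ndufa, Ndufb, Ndufc, Ndufs, Ndufv, Uqcr, Cox4, Cox5, Cox6, Cox7 or Cox8, or is Sdha, Sdhb, Sdhc or Sdhd, and symbols starting with Ndufaf (assembly factors) were left out. Each gene was read from the brightest probe set annotated to it alone. This gave 65 members of the 18193 genes measured. Complex I had 36 of them, complex II 4, complex III 8 and complex IV 17.

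The study put young adult CD-1 mice into 3 groups of 12, all given an operation and a pellet under the skin. The sham group had a sham operation and a placebo pellet, the castration group was castrated and had a placebo pellet, and the testosterone group was castrated and had a pellet of 2.5 mg testosterone made to release over 60 days. The gastrocnemius was taken from non-fasted animals after 14 days. RNA of 3 animals was pooled in equal amounts for each array, so the 9 Affymetrix arrays, 3 per group, stood for 27 of the 36 mice. A p-value therefore measures the spread between pools of 3 mice and not between mice, and n = 3 pools in every group below. The comparisons share arrays: castration minus sham and testosterone minus castration both use the castration arrays, and testosterone minus sham reuses the sham and testosterone arrays.

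The respiratory chain passes electrons from NADH (complex I, NADH dehydrogenase) and from succinate (complex II, succinate dehydrogenase, also an enzyme of the citric acid cycle) through coenzyme Q to complex III (cytochrome bc1) and by cytochrome c to complex IV (cytochrome c oxidase), which reduces oxygen. Complexes I, III and IV pump protons, and complex II does not. Subunits of complexes I, III and IV come from both nuclear and mitochondrial DNA, those of complex II from nuclear DNA alone, and only nuclear-encoded ones are described here. Oxidative fibres of skeletal muscle are rich in all of them. Complex IV has muscle isoforms of some subunits, among them Cox6a2, Cox7a1 and Cox8b, beside the general isoforms Cox6a1, Cox7a2 and Cox8a.

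All values are deposited log2 expression values, so a difference of 1 is a doubling. The muscle markers Acta1 (skeletal actin) and Ckm (muscle creatine kinase) lay between 13.96 and 14.24 on every array, where 14.24 was the highest value of all. The mean of 10 muscle fibre markers was 13.37 on array 2 of the testosterone group and 13.42 to 13.50 on the other 8. Among these markers Neb varied more, at 10.87 on that array and 11.55 to 11.93 on the others. The 2 arrays that stood apart were sham 2 and testosterone 2. Sham 2 had the lowest mean correlation with the other arrays (0.973, against 0.983 for testosterone 2 and 0.990 to 0.991 for the other 7) and was the lowest or highest array for 54.6% of all genes, but for 11 of the 65 members. Testosterone 2 was the lowest or highest array for 31.0% of all genes and for 39 of the 65 members. On testosterone 2 the Gapdh control probe sets at the 3′ end read 1.10 above those at the 5′ end, against 0.02 to 0.28 on the other 8 arrays, and those of beta-actin 1.56 above, against 0.20 to 0.68. That difference is a common measure of RNA integrity and labelling length.

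In no comparison did a member pass an adjusted p of 0.05 (limma, Benjamini-Hochberg over 18193 genes), and no gene of the whole table did. For members with a mean above 6, which were 57 of the 65, the median spread between pools of a group was an SD of 0.11. For the 4049 genes of the table with a mean above 6 it was 0.23. These sets were not matched for brightness, with a median level of 11.47 in the members and 7.56 in those genes. The shares of all genes given below (median level 3.58) were not matched for brightness either. The other 8 members were dimmer. The array medians lay between 3.15 and 3.27, and Cox4i2 (mean 3.39), Cox6b2 (3.48), Cox7b2 (2.65), Cox7c (3.12) and Ndufb4 (2.87) lay close to them. Their differences are differences between faint signals. Ndufb4 also shares 2 probe sets with Ndufb4b and Ndufb4c. The one that averaged 11.2 gave -0.02 in castration minus sham and -0.06 in testosterone minus castration, and the other, at 11.23, gave 0.01 and -0.17. Some other genes of these complexes are not analysed here.

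Castration left the members' levels close to those of sham muscle. Of the 65, 30 were higher and 35 lower in castration than in sham (52.9% of all genes were higher), with a median log2 difference of -0.006 and a range from -0.32 (Cox8c, a faint signal) to 0.24 (Cox7c, a faint signal). Cox8c was high on sham 2 alone and differed by 0.01 without it, and Cox7c differed by 0.07 without castration 1. No member differed by more than 1.25-fold, whereas 11.7% of all genes did (4.16% without sham 2, again with no member). For 63 of the 65 the 95% interval of the difference lay within 1.5-fold in either direction, as it did for 73.7% of all genes. No member was at an unadjusted p under 0.05, against 4.72% of all genes, and 5 members had groups that did not overlap, against 8.89% of all genes. Of these 5, Cox6a2 was higher (5.17% of all genes) and Ndufa4, Cox4i1, Cox7a1 and Cox8a were lower (3.72%). The smallest adjusted p was 0.838 (limma, Benjamini-Hochberg). Among all genes with a mean above 6 the median of castration minus sham was 0.14, and 79.0% were higher in castration. Among the 57 members with such a mean it was -0.006, and 47.4% were higher. Without sham 2 the median of all such genes was 0.01 and that of the members -0.01.

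Between testosterone and castration, most members again lay near 0, and Sdhc and Sdhb of complex II and Ndufa4l2 of complex I lay furthest from it. Of the 65, 26 were higher and 39 lower with testosterone (48.3% of all genes were higher), and the median log2 difference was -0.02 (all genes -0.005). The members at an unadjusted p under 0.05 were 3, all lower with testosterone, against 3.48% of all genes at that p and 1.84% lower at that p. They were Sdhc, Sdhb and Cox6a2, with adjusted p of 0.983 or more (limma, Benjamini-Hochberg). Groups did not overlap for 7 members, against 9.01% of all genes: Ndufa7, Sdhb, Sdhc, Uqcrb and Cox6a2 were lower (4.79% of all genes) and Ndufb4 and Cox7a2 higher (4.22%). Differences over 1.25-fold were found for 3 members, Sdhc, Sdhb and Ndufa4l2, and for 6.63% of all genes, and leaving out 1 array in turn gave 1 to 6 members. Without castration 1 or castration 3 the count was 1, without testosterone 1 it was 6 and without testosterone 3 it was 5. The 95% interval lay within 1.5-fold for 56 of the 65 members and 77.3% of all genes. The count of 3 at an unadjusted p under 0.05 was 1 without castration 1, castration 3 or testosterone 2 (in each case Sdhc) and 6 without testosterone 3.

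Testosterone-treated castrates and sham mice differed little too. Of the 65 members, 19 were higher and 46 lower with testosterone (47.9% of all genes were lower), with a median log2 difference of -0.03 (all genes 0.007). The count depended on single arrays. In complex I 22 of 36 genes were lower, and in complex IV 12 of 17. Without testosterone 1 these counts were 16 and 8, and without sham 3 they were 16 and 9. With 1 array left out in turn they ran from 16 to 25 and from 8 to 13. The single member at an unadjusted p under 0.05 was Cox8a, against 4.35% of all genes and 1.7% lower at that p. Its call was lost without sham 2, testosterone 1 or testosterone 2, and 3 members were at that p without sham 3 or without testosterone 3. Only Cox8a and Ndufa7 had groups that did not overlap, both lower with testosterone, against 6.47% of all genes in either direction and 3.64% in that one. For 61 of the 65 the 95% interval lay within 1.5-fold, as for 73% of all genes. Over the 3 groups together, 1 member, Sdhc, had an unadjusted p under 0.05 in the F test of limma, against 3.64% of all genes, and none passed adjustment.

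**Figure D1:**
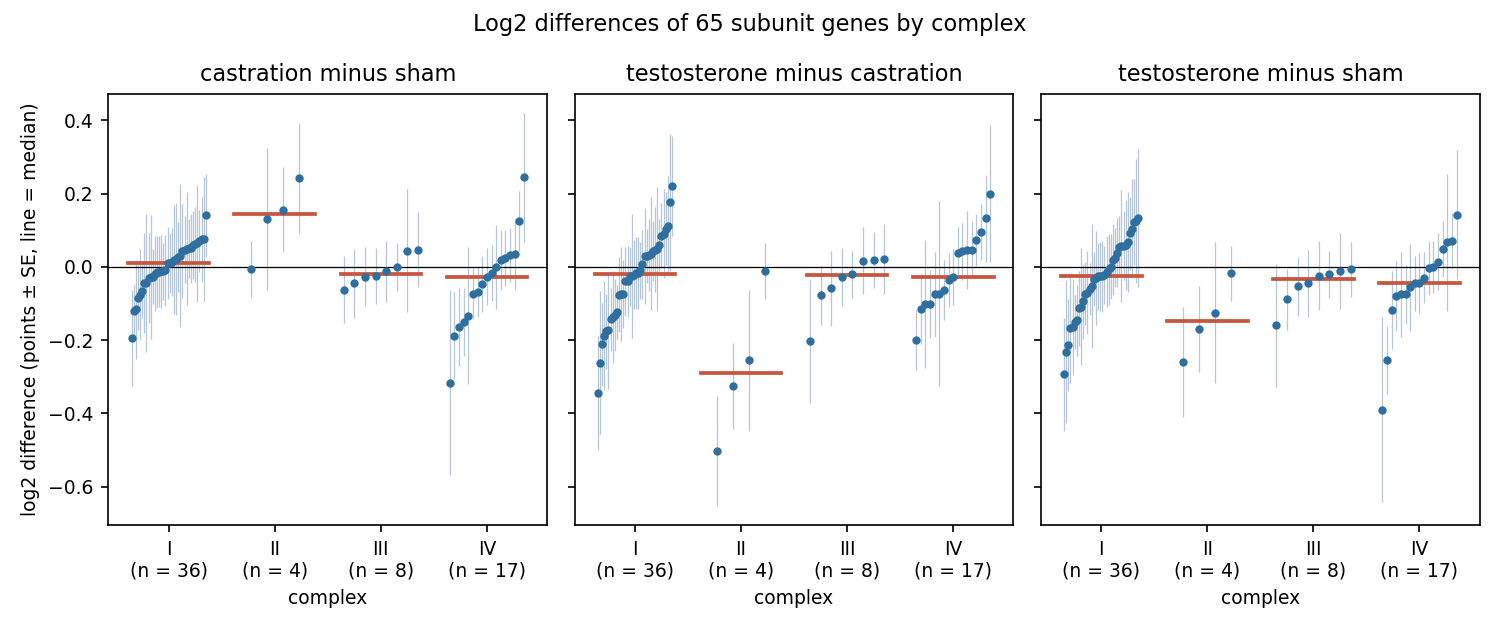
Log2 difference of each of the 65 members (points, with the standard error of the limma fit, n = 3 pools per group) in the 3 comparisons, grouped by complex, with the median of each complex as a line. Complexes I, III and IV have medians within 0.05 of 0 in all 3 comparisons, and complex II lies at 0.14, -0.29 and -0.15 (-0.12 and -0.04 for the last 2 without testosterone 2).

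Complex II had the lowest median of the complexes with testosterone, against castration and against sham. Its 4 subunits had a median log2 difference of 0.14 in castration minus sham, -0.29 in testosterone minus castration and -0.15 in testosterone minus sham. Without testosterone 2 the medians against castration and sham were -0.12 and -0.04, and without castration 1 that of castration minus sham was 0.09. Without sham 2 and testosterone 2 the median against sham was -0.042, and that of complex I was -0.044. The flavoprotein Sdha, which oxidises succinate, and the iron-sulfur protein Sdhb form the head of the enzyme, and Sdhc and Sdhd anchor it in the inner membrane and bind coenzyme Q. RefSeq promoters (build GRCm38.p6, the 250 bases before the start site, 5′ to 3′ on the gene's strand) were at hand for 52 of the 65 members. They are printed for Sdha, Sdhb and Sdhd, since these 3 genes of one enzyme gave different values, and for Cox6a1, whose signal moved most on testosterone 2. Sdhc has no entry among them. Capitals mark matches, on either strand, to GCGCA and GCGC with 1 free base between them (the motif of NRF1, nuclear respiratory factor 1) and to CCGGAAG (the motif of GABP, also called NRF2, and other ETS factors), which both regulate respiratory chain genes. Sdha lies at chr13:74350241-74350490 on the minus strand, Sdhb at chr4:140961021-140961270 on the plus strand, Sdhd at chr9:50603850-50604099 on the minus strand and Cox6a1 at chr5:115348959-115349208 on the minus strand.
Sdha: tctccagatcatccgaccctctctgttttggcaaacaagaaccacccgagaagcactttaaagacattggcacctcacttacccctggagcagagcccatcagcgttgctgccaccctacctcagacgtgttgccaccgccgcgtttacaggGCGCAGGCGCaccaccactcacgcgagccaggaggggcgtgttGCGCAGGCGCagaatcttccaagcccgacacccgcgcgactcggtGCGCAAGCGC
Sdhb: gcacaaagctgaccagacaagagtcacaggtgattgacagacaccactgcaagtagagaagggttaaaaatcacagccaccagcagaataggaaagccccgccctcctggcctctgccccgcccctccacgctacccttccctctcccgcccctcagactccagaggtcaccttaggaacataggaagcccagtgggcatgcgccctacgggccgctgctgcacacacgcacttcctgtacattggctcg
Sdhd: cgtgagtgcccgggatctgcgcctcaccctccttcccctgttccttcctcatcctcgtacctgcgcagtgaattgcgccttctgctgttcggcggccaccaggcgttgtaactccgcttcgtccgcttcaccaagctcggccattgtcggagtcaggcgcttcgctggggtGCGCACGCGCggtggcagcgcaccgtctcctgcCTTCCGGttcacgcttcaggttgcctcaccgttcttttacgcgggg
Cox6a1: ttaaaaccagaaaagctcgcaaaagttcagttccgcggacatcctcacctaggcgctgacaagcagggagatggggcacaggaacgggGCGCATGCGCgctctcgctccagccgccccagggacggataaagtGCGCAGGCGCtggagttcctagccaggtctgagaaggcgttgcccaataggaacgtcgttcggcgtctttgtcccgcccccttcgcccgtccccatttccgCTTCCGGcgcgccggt
Sdha held 3 matches to the NRF1 motif, Sdhd 1 NRF1 and 1 ETS match, Cox6a1 2 NRF1 and 1 ETS match, and Sdhb none. Over the 52 members with a promoter, the NRF1 motif was found in 7 (13.5%), against 6.37% of the 14452 genes with a promoter, and the ETS motif in 8 (15.4%), against 10.6%. The motif of the estrogen-related receptors (AAGGTCA) was found in 3 members (5.77%, all genes 3.46%), and the E-box CAGCTG of myogenic factors in 5 (9.62%, all genes 12.5%). The full element of the androgen receptor (AGAACA and TGTTCT with 3 free bases between them) was in no member's window and in that of 1 gene of all, and its arm AGAACA alone was in 6 members (11.5%, all genes 12.5%). The motifs were searched on both strands, a full androgen element holds that arm, and a match describes letters only.

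Sdhc had the largest difference of all members. It read 10.18, 9.92 and 10.12 in sham, 10.49, 10.16 and 10.30 in castration, and 9.81, 9.55 and 10.09 with testosterone. All 3 testosterone pools lay below all 3 castration pools, with a narrow gap between 10.09 and 10.16, and sham overlapped both. Testosterone minus castration was -0.50 (SE 0.15, 95% interval -0.84 to -0.16, unadjusted p = 0.00906, adjusted p = 0.983 by limma with Benjamini-Hochberg). Castration minus sham was 0.24 (SE 0.15; 0.16 without castration 1) and testosterone minus sham -0.26 (SE 0.15; -0.13 without testosterone 2). Without testosterone 2 the difference from castration was -0.37 (unadjusted p = 0.0314 by limma). The second probe set of Sdhc, at a mean of 7.93, gave -0.31, its groups overlapped, and on it testosterone 2 was not the lowest pool.

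Sdhb read 12.61, 12.57 and 12.49 in sham, 12.82, 12.58 and 12.74 in castration, and 12.42, 12.16 and 12.58 with testosterone. Testosterone lay below castration with the pools 12.58 and 12.58 touching to 2 decimals, and overlapped sham. Testosterone minus castration was -0.33 (SE 0.12, unadjusted p = 0.0223 and adjusted p = 1.00 by limma with Benjamini-Hochberg). Without testosterone 2 it was -0.21, at an unadjusted limma p of 0.0737.

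Sdhd read 10.29, 9.88 and 9.99 in sham, 10.31, 10.08 and 10.17 in castration, and 10.23, 9.48 and 10.07 with testosterone. Only testosterone 2 was far below the others, and the groups overlapped. Testosterone minus castration was -0.26 (SE 0.19) with all pools and -0.03 without sham 2 and testosterone 2. On its second probe set, at a mean of 7.05, testosterone 2 was not low, at 7.24.

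Sdha read 11.24, 11.29 and 11.40 in sham, 11.33, 11.35 and 11.24 in castration, and 11.29, 11.31 and 11.28 with testosterone, with groups that overlapped and a largest difference of -0.02 between any groups. Its second probe set, at a mean of 10.43, read 9.79 on testosterone 2 and 10.38 to 10.70 on the other 8 arrays. So of the 4 genes, Sdha was near 0 on its brightest probe set, and Sdhd was low on testosterone 2 alone.

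**Figure D2:**
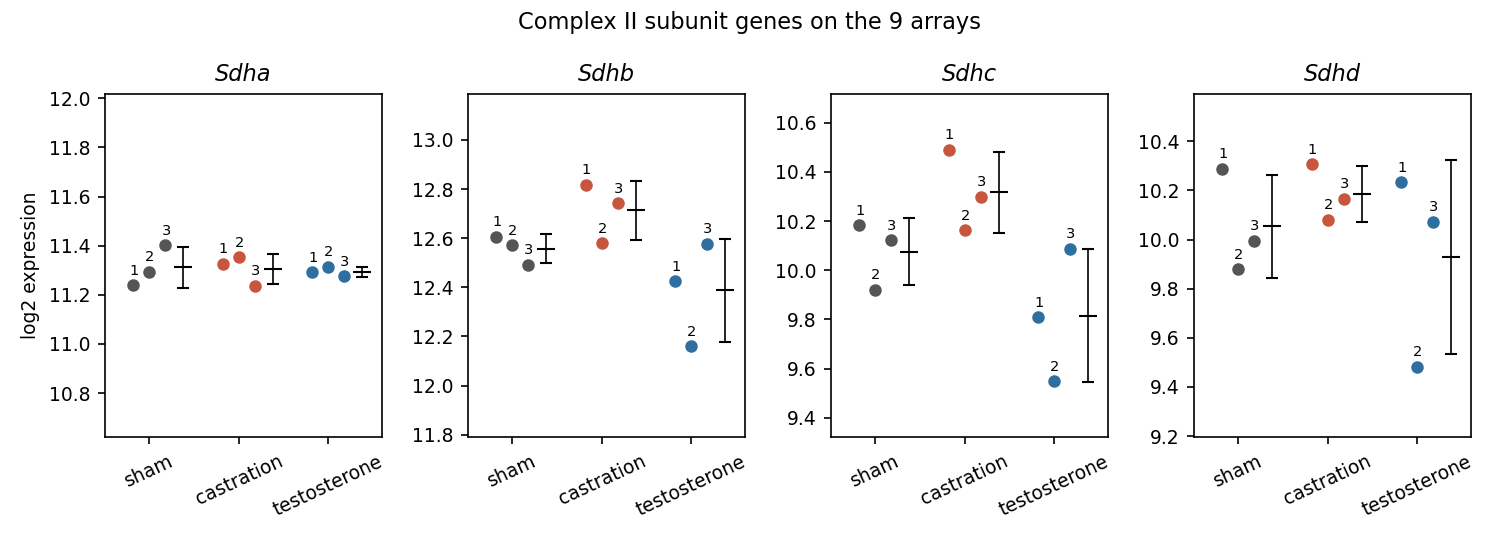
Log2 expression of the 4 complex II genes on the 9 arrays (points numbered by pool, n = 3 per group), with the group mean and SD as a bar to the right of the points; each vertical axis spans 1.4 log2 units. Sdhc and Sdhb lie lower with testosterone than after castration, Sdhd only in pool 2, and Sdha is level.

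Markers of other cells differed between the same groups. Of 14 macrophage and lymphocyte markers, all 14 were higher with testosterone than after castration. Their mean level was 3.95 to 4.05 in castration and 3.93 to 5.32 with testosterone, where 5.32 was testosterone 2. Of 10 adipocyte markers 9 were higher, with mean levels of 5.60 to 5.65 in castration, 5.68 to 6.91 with testosterone and 5.80 to 6.72 in sham. Of 8 fibroblast markers 7 were lower with testosterone, with mean levels of 7.73 to 8.03 in castration, 6.96 to 7.43 with testosterone and 6.85 to 7.78 in sham. All 10 endothelial markers were lower with testosterone than in castration, with and without testosterone 2 (medians -0.23 without it and -0.25 with it), at mean levels of 5.79 to 6.08 in castration, 5.49 to 5.78 with testosterone and 5.27 to 5.76 in sham. Without testosterone 2, 5 of the 14 macrophage and lymphocyte markers were higher than in castration, and still 7 of the 8 fibroblast markers lower. Slow fibre markers had mean levels of 10.53 to 11.50 in sham, 10.81 to 11.72 in castration and 10.75 to 11.81 with testosterone. The highest pools of these groups were sham 1, castration 1 and testosterone 2. All 8 markers were higher in castration minus sham, testosterone minus castration and testosterone minus sham, with medians of 0.23, 0.17 and 0.47. Their groups overlapped, and none was at an unadjusted p under 0.05 by limma. The part of these markers in the complex II values was not tested. In bulk muscle, fewer cells of a type and less RNA per cell cannot be told apart.

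Complex I had medians of 0.01, -0.02 and -0.03 in castration minus sham, testosterone minus castration and testosterone minus sham. Without testosterone 1 the latter medians were 0.034 and 0.027. Of its 36 genes, 19 were higher and 17 lower after castration than in sham, and none was at an unadjusted p under 0.05 in any comparison. All 36 differences lay between -0.19 and 0.14 in castration minus sham, between -0.34 and 0.22 in testosterone minus castration and between -0.29 and 0.13 in testosterone minus sham. The low ends of the last 2 ranges were both the dim Ndufa4l2 (mean 5.62). Ndufv1, which holds the flavin that takes electrons from NADH, read 11.16, 11.32 and 11.40 in sham, 11.25, 11.15 and 11.14 in castration, and 11.26, 11.71 and 11.22 with testosterone. Apart from the high testosterone 2 the groups overlapped, and testosterone minus castration was 0.22 (SE 0.14) with all arrays and 0.06 without testosterone 2.

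Ndufs1, the largest subunit of the complex and a carrier of iron-sulfur clusters, read 10.87, 10.82 and 10.84 in sham, 10.97, 10.75 and 10.89 in castration, and 10.87, 10.08 and 10.87 with testosterone. Again testosterone 2 alone stood off, in the other direction than for Ndufv1, and without sham 2 and testosterone 2 the difference from castration was 0.002. Ndufv2, the partner of Ndufv1, differed by -0.02 in castration minus sham and -0.08 in testosterone minus castration, which was 0.04 without testosterone 2. The core subunits Ndufs3, Ndufs7 and Ndufs8 had castration minus sham differences of 0.07, -0.03 and 0.05. Their testosterone minus castration differences were -0.14, 0.09 and -0.07. Their standard errors were 0.09 to 0.12, and groups overlapped in all 3 comparisons. Without testosterone 2 the testosterone minus castration differences were -0.08, -0.04 and -0.15, so that of Ndufs7 turned its sign and the groups of Ndufs8 no longer overlapped.

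Among accessory subunits, Ndufs4, which is needed for a stable NADH module, read 10.48, 10.11 and 10.27 in sham, 10.07, 10.05 and 10.16 in castration, and 10.10, 9.92 and 10.35 with testosterone. Sham and castration overlapped, with castration minus sham at -0.19 (SE 0.13, unadjusted p = 0.177 by limma). Without sham 1 it was -0.09, and without sham 2 and testosterone 2 it was -0.28 at an unadjusted limma p of 0.0314. The 3 other probe sets of Ndufs4 gave -0.07, -0.02 and -0.003. Ndufa7 was lower with testosterone than in both other groups without overlap, at 11.03, 11.00 and 11.16, against 11.17, 11.18 and 11.20 in castration and 11.17, 11.27 and 11.20 in sham. The steps were -0.12 and -0.15 (SE 0.07), at unadjusted limma p of 0.132 and 0.0752. Ndufb3, a membrane-arm subunit, differed by 0.14 in castration minus sham (0.05 without sham 2) and by -0.21 in testosterone minus castration (SE 0.11). Ndufa2 and Ndufb10 differed from sham with testosterone by 0.12 and 0.09, and by 0.005 and 0.02 without testosterone 2.

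Ndufa4, first described in complex I and now counted with complex IV, was one of the members without overlap after castration. It read 11.85, 11.73 and 11.83 in sham, 11.68, 11.71 and 11.66 in castration, and 11.76, 11.69 and 11.78 with testosterone, so castration pools lay below all sham pools and testosterone pools overlapped both. Castration minus sham was -0.12 (SE 0.07). Its paralogue Ndufa4l2, a gene induced by low oxygen, had a mean of 5.62 and read 5.82, 5.56 and 5.86 in castration and 5.19, 5.44 and 5.59 with testosterone. Its testosterone minus castration difference was -0.34 (SE 0.15, unadjusted p = 0.0551 by limma), and the groups overlapped.

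The genes of complex III differed between groups by a median size of 0.035, 0.024 and 0.034. Its 8 genes had medians of -0.02, -0.02 and -0.03 in the 3 comparisons, and all differences between castration and sham lay between -0.06 and 0.05. With testosterone all 8 were below sham, by values from -0.16 to -0.006, against 47.9% of all genes below sham, and the 8 values came from the same 6 arrays. Without testosterone 2, 6 of the 8 were below sham, and without testosterone 1 5 were. The core proteins Uqcrc1 and Uqcrc2 differed by -0.02 and 0.05 in castration minus sham and by 0.02 and -0.06 in testosterone minus castration, and their groups overlapped. The Rieske iron-sulfur protein Uqcrfs1, which passes electrons to cytochrome c1, read 12.03, 11.94 and 11.90 in sham, 12.12, 11.87 and 12.01 in castration, and 12.04, 11.37 and 11.98 with testosterone. Only testosterone 2 was low. Its testosterone minus castration difference of -0.20 (SE 0.17) became 0.01 without sham 2 and testosterone 2.

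The hinge protein Uqcrh, which links cytochrome c1 with cytochrome c, differed by -0.08 in testosterone minus castration and -0.09 in testosterone minus sham (SE 0.08). Uqcrq and Uqcr11 had castration minus sham differences of -0.06 and -0.05 and testosterone minus castration differences of 0.02 each. Uqcrb had groups without overlap in testosterone minus castration (13.28, 13.27 and 13.28 against 13.27, 13.24 and 13.26), with a difference of only -0.02 (SE 0.06).

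**Figure D3:**
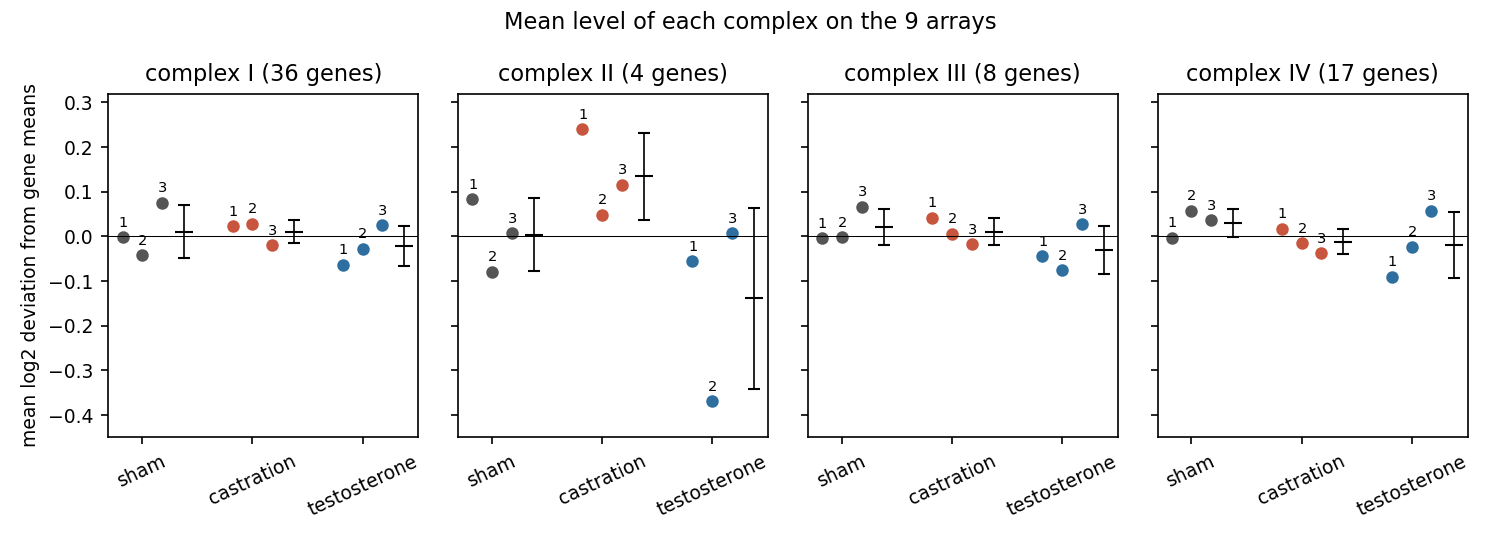
Mean log2 deviation of the genes of each complex from their own means over the 9 arrays, per array (points numbered by pool, n = 3 per group), with the group mean and SD as a bar to the right of the points. Complexes I, III and IV stay within 0.1 of 0 on every array, and complex II runs from -0.37 on testosterone 2 to 0.24 on castration 1.

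Complex IV had medians of -0.03, -0.03 and -0.04, and the one in testosterone minus castration was 0.049 without castration 1. Of its 17 genes, 6 were higher and 11 lower in castration than in sham. All 17 differences lay between -0.32 and 0.24 in castration minus sham, between -0.20 and 0.20 in testosterone minus castration and between -0.39 and 0.14 in testosterone minus sham, and both ends of the first and last range were the faint Cox8c and Cox7c. Cox8c in testosterone minus sham was -0.06 without sham 2. Castration and sham did not overlap for Cox4i1, Cox7a1 and Cox8a (lower) and Cox6a2 (higher). Cox4i1, the general isoform of the largest nuclear subunit, read 12.53, 12.53 and 12.58 in sham, 12.50, 12.49 and 12.45 in castration, and 12.46, 12.50 and 12.59 with testosterone. Its castration minus sham difference was -0.07 (SE 0.07). The lung isoform Cox4i2 was a faint signal, and its differences were -0.07 or less in size. Cox6c differed by 0.03 in castration minus sham and by -0.12 in testosterone minus castration, with overlapping groups. The latter was -0.06 without sham 2 and testosterone 2, and 0.09 on the second probe set of Cox6c.

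The muscle isoform Cox6a2 was also at an unadjusted p under 0.05. It read 12.82, 12.84 and 12.89 in sham, 12.97, 13.00 and 12.96 in castration, and 12.80, 12.64 and 12.89 with testosterone. Castration lay above both other groups, and those overlapped. Castration minus sham was 0.12 (SE 0.08, unadjusted p = 0.16 by limma) and testosterone minus castration -0.20 (SE 0.08, unadjusted p = 0.0373 by limma), which was -0.13 without testosterone 2 (unadjusted p = 0.125 by limma). On its second probe set, at a mean of 11.33, castration minus sham was 0.11 and testosterone minus castration -0.11, with overlapping groups. The general isoform Cox6a1 read 9.84, 9.99 and 9.94 in sham, 9.74, 9.89 and 9.74 in castration, and 9.64, 10.47 and 9.86 with testosterone, where testosterone 2 alone was high.

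Cox7a1, the muscle isoform of another subunit, read 10.93, 10.96 and 11.17 in sham, 10.89, 10.92 and 10.68 in castration, and 10.75, 11.06 and 11.07 with testosterone. All castration pools were below all sham pools, and the testosterone pools overlapped both. Castration minus sham was -0.19 (SE 0.12, unadjusted p = 0.151 by limma), and -0.11 without castration 3 or without sham 3. The general isoform Cox7a2 read 12.37, 12.40 and 12.51 in sham, 12.33, 12.37 and 12.36 in castration, and 12.40, 12.44 and 12.44 with testosterone, so testosterone lay above castration, by 0.07 (SE 0.07). The related Cox7a2l, which takes part in joining complexes III and IV, differed by 0.02 and 0.05 in castration minus sham and testosterone minus castration. Its other probe sets, at means of 9.07 and 9.06, both gave -0.06 in castration minus sham. In testosterone minus castration they gave 0.20 and 0.19, and testosterone 2 was the highest pool on both.

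Cox8a, the general isoform, was lowest with testosterone on its brightest probe set. It read 7.86, 8.01 and 7.91 in sham, 7.77, 7.73 and 7.82 in castration, and 7.67, 7.53 and 7.82 with testosterone. Sham lay above both other groups, and those overlapped. Castration minus sham was -0.15 (SE 0.09), and testosterone minus sham was -0.25 (SE 0.09, unadjusted p = 0.0243 and adjusted p = 0.780 by limma with Benjamini-Hochberg). Without testosterone 2 the latter was -0.18, and without sham 2 and testosterone 2 it was -0.14. A second probe set of Cox8a, at a mean of 7.68, was lowest in castration, with sham above both other groups. It gave -0.23 in castration minus sham and -0.21 in testosterone minus sham. Their unadjusted p was 0.00859 and 0.0142 by limma over all probe sets. So whether Cox8a is at an unadjusted p under 0.05 after castration depends on the probe set. Another probe set was near the array medians. The muscle isoform Cox8b read 12.84, 12.75 and 12.88 in sham, 12.84, 12.76 and 12.82 in castration and 12.69, 12.82 and 12.82 with testosterone, and its groups overlapped.

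**Figure D4:**
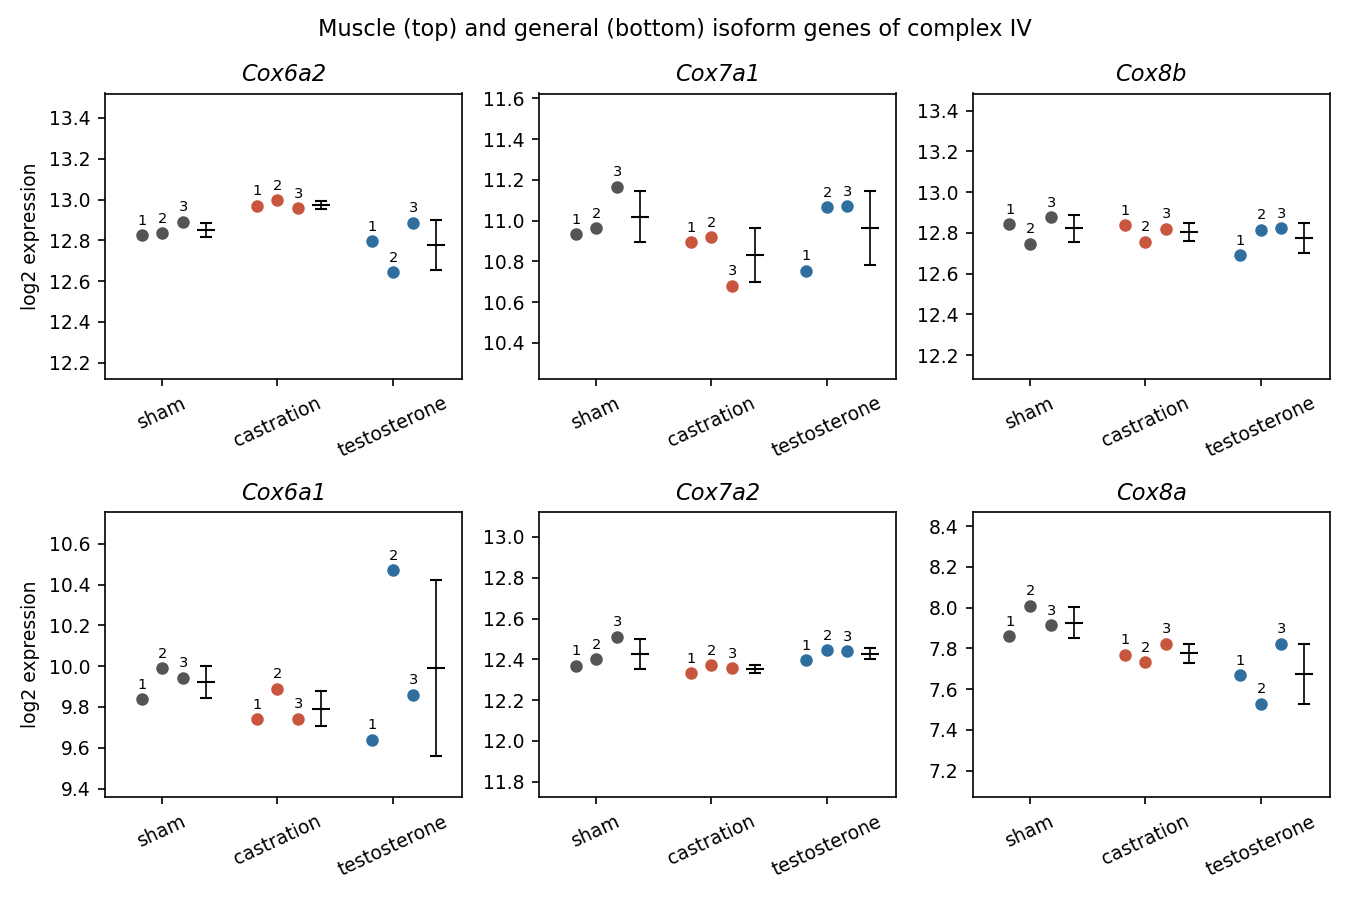
Log2 expression of 3 muscle isoforms of complex IV subunits (top) and their general isoforms (bottom) on the 9 arrays (points numbered by pool, n = 3 per group), with the group mean and SD as a bar to the right of the points; each vertical axis spans 1.4 log2 units. Cox6a2 is highest and Cox7a1 lowest in castration, Cox8a is highest in sham, and Cox6a1 stands out on testosterone 2 only.

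Taking the difference between a muscle isoform and its general partner within each array removes what both share. The difference Cox6a2 minus Cox6a1 was 0.26 larger in castration than in sham, without overlap, and changed by -0.40 from castration to testosterone, with overlap, which was -0.09 without testosterone 2. Cox7a1 minus Cox7a2 was smaller after castration than in sham, by a change of -0.12, without overlap. The closest sham and castration pools were both at -1.44, and without castration 3 the change was -0.04. Cox8b minus Cox8a was larger than in sham by 0.13 after castration and by 0.21 with testosterone, both without overlap. Without sham 2 these were 0.06 and 0.13, and without testosterone 2 the second was 0.12. Without both arrays it was 0.04. In each of these 4 non-overlapping cases the two-sided exact permutation p was 0.1, the smallest that 3 pools against 3 can give, and 0.3 after Benjamini-Hochberg adjustment over the 12 such tests made with the Cox4i2 and Cox4i1 pair included. The pairs differed in sign, and none could pass a threshold of 0.05 in this design.

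Testosterone 2 spread the members in both directions. Set against the mean of testosterone 1 and 3, 14 members were lower and 7 higher on it by more than 0.3. The lowest were Ndufs1 (-0.79), Sdhd (-0.67), Uqcrfs1 (-0.64) and Ndufab1, the mitochondrial acyl carrier protein (-0.56). The highest were Cox6a1 (0.72), Ndufa5 (0.52), Ndufb7 (0.51) and Ndufv1 (0.47). The median size of a member's deviation from its mean was 0.15 on this array and 0.03 to 0.09 on the others. Of 35 members with more than 1 probe set above a mean of 6, 24 had probe sets on both sides of 0 there, and probe sets of one gene lay a median of 0.35 apart in that deviation, against 0.09 to 0.19 on the other 8 arrays. The part of the 3′ to 5′ difference in these values was not tested.

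**Figure D5:**
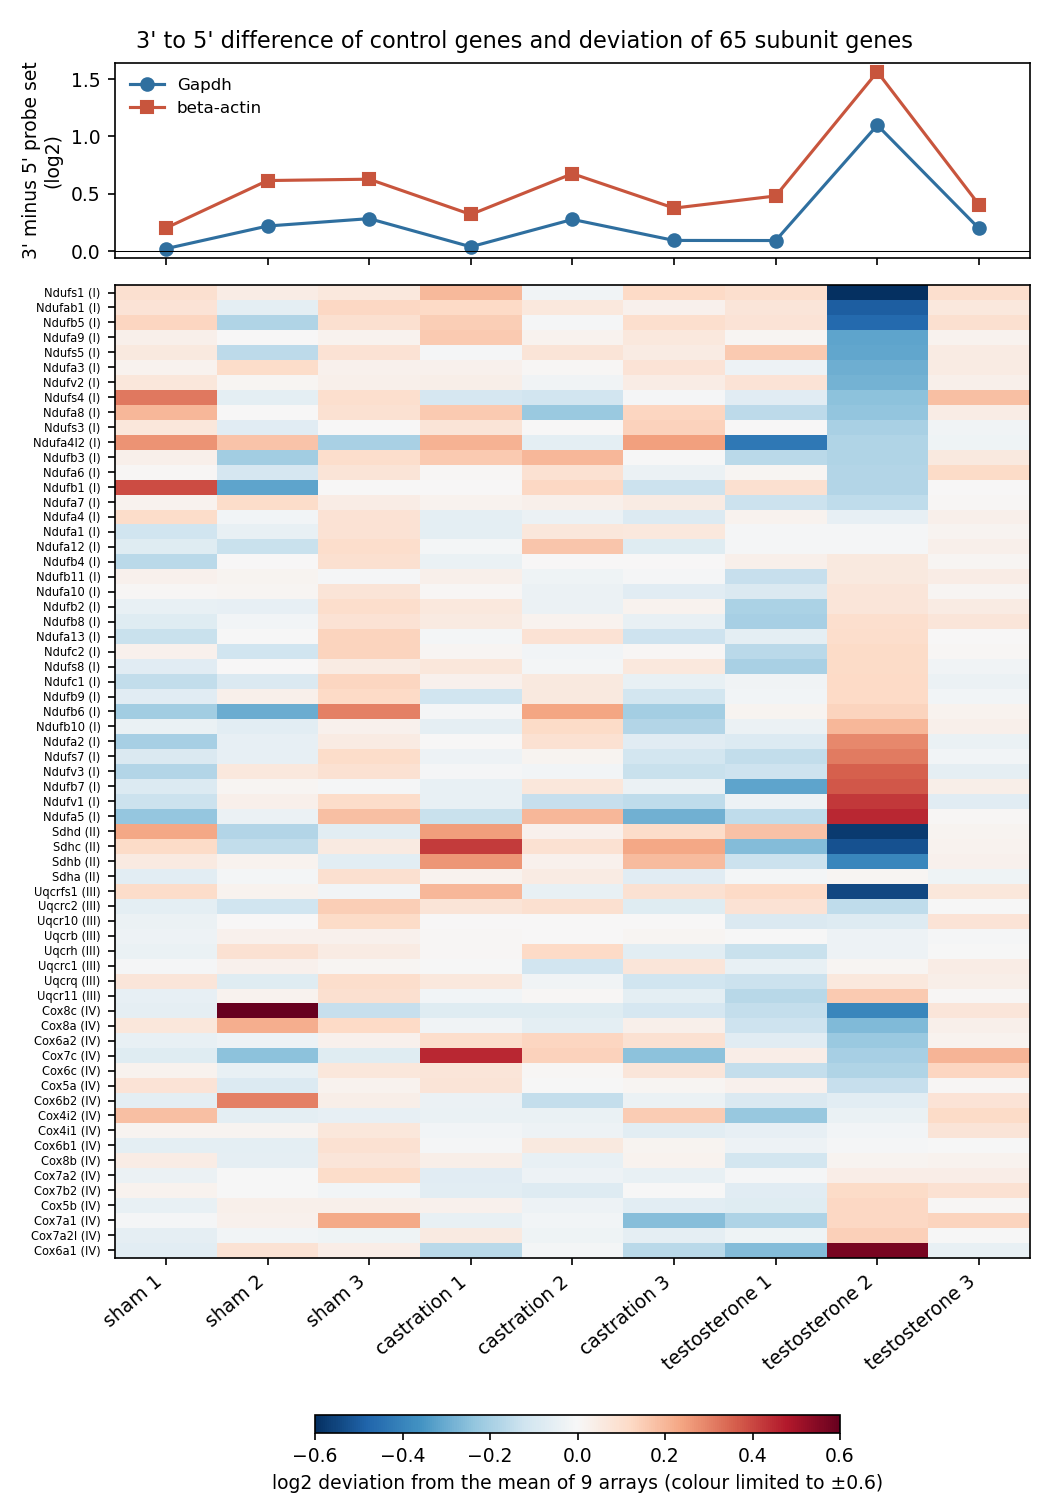
Top, difference between 3′ and 5′ control probe sets of Gapdh and beta-actin on each array (log2). Bottom, log2 deviation of each of the 65 members from its mean over the 9 arrays (colour, limited to 0.6 in either direction), ordered within a complex by the value on testosterone 2; this array has both the largest control differences (1.10 and 1.56) and the most extreme members (39 of 65).

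Probe sets of one member did not always point the same way between groups either. Among the 35 members with more than 1 bright probe set, all such sets shared a sign for 19 in castration minus sham, 21 in testosterone minus castration and 19 in testosterone minus sham. For the other members at least 1 bright probe set had the opposite sign.

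Other genes of oxidative metabolism were read from lists of related pathways. Complex V, the ATP synthase, had 16 of 18 listed genes measured, with none at an unadjusted p under 0.05 in any comparison. Its medians were -0.001 in castration minus sham, -0.07 in testosterone minus castration and -0.06 in testosterone minus sham, of which the last 2 were -0.03 and -0.02 without testosterone 2. Of 13 genes of the citric acid cycle, which feeds succinate to complex II, 2 were higher in castration than in sham and 3 lower with testosterone than in castration at an unadjusted p under 0.05 (3.09% and 1.84% of all genes in those directions), and none passed adjustment. Without sham 2 the count of 2 was 1, and without testosterone 2 the count of 3 was 0. Among them Suclg2, a subunit of the succinyl-CoA ligase that makes succinate, read 7.71, 7.38 and 7.78 in sham, 8.07, 8.08 and 7.96 in castration, and 7.73, 7.51 and 7.78 with testosterone. Castration lay above both other groups, by 0.42 over sham (SE 0.12, unadjusted p = 0.00799, adjusted p = 0.838 by limma with Benjamini-Hochberg), and testosterone minus castration was -0.37 (SE 0.12, unadjusted p = 0.015 by limma). Without sham 2 and testosterone 2 these were 0.30 and -0.29. Coenzyme Q synthesis with cytochromes c and c1 had 10 of 13 measured genes higher in castration than in sham and 11 lower with testosterone than in castration, with medians of 0.13 and -0.04. Of all genes with a mean above 6, 79.0% were higher in castration than in sham, and of all genes 52.9%. The share of 76.9% in this list was near the first of these, though Coq4 and Coq10b were dimmer (means of 5.1). Fatty acid oxidation (16 genes measured) and mitochondrial import and inner membrane organisation (15 genes) had medians of 0.05 and 0.09 in castration minus sham and -0.08 and -0.06 in testosterone minus castration, with no gene at an unadjusted p under 0.05 by limma. Without sham 2 the castration minus sham medians of these 3 lists were 0.07, -0.04 and 0.0094, so that of fatty acid oxidation turned its sign, and 1 gene of fatty acid oxidation was lower at an unadjusted p under 0.05 by limma. Without testosterone 2 the testosterone minus castration medians of the 3 lists were -0.014, -0.041 and -0.013.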

How the data were processed

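Gene expression was measured in 9 pools of gastrocnemius RNA on Affymetrix mouse arrays. Per the submitters' processing notes the authors used RMA (version not given in the sources used here), and the deposited values are log2 expression per probe set. RMA summarises probes after background correction and quantile normalisation, so a shift of a whole array is removed. The values were used as deposited. Of 45101 probe sets, 34945 were annotated to 1 gene, 932 to several, and 9160 besides 64 controls had none listed. Groups and replicate numbers came from the sample titles.

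The fit used limma 3.58.1 in R 4.3.3 on all 9 arrays with group as the only term, and Benjamini-Hochberg adjustment over 18193 genes. It was tested on simulated data. Precision is limited by the number of arrays. The members and lists were chosen with earlier results of these data known. Named members were, per complex and comparison, the 2 with the smallest p in each direction, with all of complex II, the core subunits and the paired isoforms. Other members, and the other mitochondrial lists' genes with the smallest p, are named as well; Cox8c, Uqcrb, Ndufb4, Ndufab1, Ndufa5 and Ndufb7 were singled out after their values were seen. Alternatives were a replicate block, other probe set choices, normalisations, variance models and left-out arrays; those for bright genes and other lists were chosen after seeing the data.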

Additional observations from a re-analysis of the deposited data

How the results depend on the processing

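No member passed an adjusted p of 0.05 (limma, Benjamini-Hochberg) under any alternative, and the smallest was 0.0965, for Ndufs4 in castration minus sham with array weights. Counts below are castration minus sham, then testosterone minus castration, then testosterone minus sham, and those not given were within 1.5 times the main count (0, 3 and 1 members and 859, 633 and 791 genes at an unadjusted p under 0.05, no gene past adjustment). Members at an unadjusted p under 0.05 numbered 1 in the first comparison with probe sets averaged per gene, a further quantile normalisation or unmoderated analysis of variance, and 4 with array weights. Between testosterone and sham they numbered 0 with only the 2 groups, without dim genes or with an intensity trend, 3 with the quantile normalisation, 2 with the analysis of variance and 4 with array weights. Without sham 2 and testosterone 2 they were 1, 1 and 0, and the complex II median of testosterone minus castration was -0.12.

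Genes past adjustment in the first comparison numbered 2 with averaged probe sets, 5 with the quantile normalisation, 2 with the intensity trend, 174 with array weights and 18 without both arrays. In the second they numbered 12 with only the 2 groups, 2 with averaged probe sets, 9 without dim genes, 22 with the quantile normalisation, 12 with the trend, 59 with array weights and 27 without both arrays. Genes at an unadjusted p under 0.05 numbered 1892, 1361 and 2144 over all probe sets and 513, 405 and 368 without dim genes. They numbered 3295, 1281 and 2399 with array weights, 1006 (testosterone minus castration) and 379 (testosterone minus sham) with only the 2 groups, and 1051 (testosterone minus castration) without both arrays.

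Leaving out 1 array in turn gave 0 to 1, 1 to 6 and 0 to 3 members and 483 to 2275, 394 to 1093 and 505 to 2479 genes at an unadjusted p under 0.05, with 0 to 7, 0 to 28 and 0 to 1 genes past adjustment. Medians of testosterone minus castration then ran from -0.041 to 0.034 in complex I, -0.38 to -0.12 in complex II and -0.041 to 0.049 in complex IV, and that of testosterone minus sham from -0.049 to 0.027 in complex I. Members whose groups did not overlap then numbered 5 to 18, 7 to 18 and 2 to 13, with 8.89% to 27.4%, 9.01% to 20.7% and 6.47% to 25.4% of all genes. Leaving out an array can only keep or raise such a count, since fewer pools have to lie apart. The lowest of these counts and shares are those of all 9 arrays. The cause of the other shifts was not tested.

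Replicate numbers did not pair the arrays (correlations of deviations from -0.49 to 0.27 between arrays of one number). With the replicate block, 0, 2 and 1 members and 840, 660 and 555 genes were at an unadjusted p under 0.05. Of 108 differences of the 36 named members, 24 changed sign without both arrays and 20 without testosterone 2. Centring on array medians turned the sign of 16 and array weights that of 14. The other variance models leave a difference itself unchanged, so under them no sign could turn. The 3 pools a group limit what can be detected, and 8 members had a mean under 6.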

Other observations

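Genes that build the respiratory chain or regulate mitochondria were read from lists of their own. Of 14 complex I assembly factors, 13 were higher in castration than in sham (median log2 difference 0.21) and 13 higher with testosterone than in sham (0.18). Of 26 measured assembly factors of complexes II to IV, 21 were higher in each of these comparisons (medians 0.19 and 0.11). Among all genes with a mean above 6, 79.0% were higher in castration than in sham and 75.6% higher with testosterone than in sham. The 80.8% of the second list was near that background, but some of its genes were dimmer, such as Lyrm7 (mean 3.2) and Sco1 (3.0). Of all genes, 52.9% were higher in castration than in sham. Ndufaf5, a complex I assembly factor, differed by 0.37 in castration minus sham, Ndufaf4 by 0.44 in testosterone minus sham, and Coa5, an assembly factor of complex IV, by 0.30 in castration minus sham. Without sham 2 these were 0.23, 0.25 and 0.21. None passed an adjusted p of 0.05 (limma, Benjamini-Hochberg). Sham 2 was the lowest array for both lists, at a mean level of 5.86 against 6.34 to 6.54 and of 6.64 against 7.01 to 7.17. Without it the medians were 0.03 and -0.003 for complex I factors and 0.02 and -0.06 for the others.

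Of 16 regulators of mitochondrial biogenesis, 13 were higher in castration than in sham (81.2%, median 0.38) and 14 higher with testosterone than in sham (87.5%, median 0.32). These medians were 0.21 and 0.12 without sham 2. For genes with a mean above 6 the shares were 79.0% and 75.6%, but some regulators were dimmer, such as Gabpb1 (mean 3.31) and Nrf1 (3.86). Of all genes, 52.9% were higher in castration than in sham and 47.9% lower with testosterone than in sham. Ppargc1a, the coactivator PGC-1 alpha, read 7.31, 6.20 and 6.80 in sham, 7.60, 7.91 and 7.14 in castration, and 8.33, 8.35 and 7.88 with testosterone. The testosterone pools lay above all sham pools. Testosterone minus sham was 1.42 (unadjusted p = 0.00107, adjusted p = 0.780 by limma with Benjamini-Hochberg), and without sham 2 it was 1.13 (unadjusted p = 0.00215 by limma). Sham and castration overlapped, and so did the regulators' mean levels in castration and testosterone (5.95 to 6.25 and 5.99 to 6.13). The 6 measured markers of brown fat did not all go the same way on sham 2. Ucp1 read 5.84 there and 3.22 to 4.08 on the other 8 arrays, and Cidea 6.27 against 3.105 to 4.58. Prdm16 was slightly highest there, at 3.77. Elovl3 (2.99), Dio2 (3.32) and Zic1 (2.74) lay within their ranges on the other arrays.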
